A study of Mus musculus with 4 samples.

Results

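Zic1, Zic2, Zic4 and Zic5 are 4 members of the Zic family of zinc finger transcription factors, and their transcripts were followed in single cells of day 6 embryoid bodies (EBs). They were found by symbol among the 25209 genes of the count tables, and all 4 were present in each library. The EBs were grown for 6 days from mouse V6.5 embryonic stem cells (ESCs), an established line, in hanging drops. The comparison was between LSD1 KO EBs, from ESCs in which CRISPR had deleted the promoter and first exon of Lsd1 (Kdm1a), and WT EBs of the parental genotype, with 2 biological replicates and 1 droplet 3′ library each; the number of KO clones behind the single cells is not given in the sources used here. The question was how loss of this histone demethylase and CoREST subunit changed cell fate.

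Zic proteins bind DNA through zinc fingers that resemble those of the Gli proteins, the effectors of Sonic hedgehog signalling. They are known for early neural development: Zic genes mark the neural plate and then the dorsal neural tube and neural crest, and in people and mice loss of Zic1 and Zic4 is linked to a malformed cerebellum and loss of Zic2 to a forebrain that fails to divide. Zic2 is expressed early, from the epiblast onwards, and in ESCs it occupies enhancers.

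The 4 genes lie as head-to-head pairs. In mm9, with GENCODE M1 gene models, Zic1 (ENSMUSG00000032368.8) spans chr9:91252896-91260648 on the minus strand and Zic4 (ENSMUSG00000036972.8) spans chr9:91257251-91284186 on the plus strand, so that their 5′ parts overlap by 3398 bases. The annotated 3′ ends, near which the tags of this assay fall, lay 4355 bases (Zic1) and 23538 bases (Zic4) outside the shared stretch. Zic5 (ENSMUSG00000041703.7) spans chr14:122856017-122864899 on the minus strand and Zic2 (ENSMUSG00000061524.7) spans chr14:122874604-122879074 on the plus strand, with 9705 bases between their 5′ ends. RefSeq promoter windows of build GRCm38.p6, from 250 bases before to 50 bases after the annotated start, matched 3 of the 4 members, all but Zic2. They are shown to set the sequences at these starts beside each other. The RefSeq window of Zic4 lies beyond that of Zic1 without overlap, whereas the GENCODE M1 models overlap. The annotations thus differ in where these genes start, and each window describes its RefSeq start only. Capitals mark CpG dinucleotides, and each window is read 5′ to 3′ on the gene's own strand.
Zic1: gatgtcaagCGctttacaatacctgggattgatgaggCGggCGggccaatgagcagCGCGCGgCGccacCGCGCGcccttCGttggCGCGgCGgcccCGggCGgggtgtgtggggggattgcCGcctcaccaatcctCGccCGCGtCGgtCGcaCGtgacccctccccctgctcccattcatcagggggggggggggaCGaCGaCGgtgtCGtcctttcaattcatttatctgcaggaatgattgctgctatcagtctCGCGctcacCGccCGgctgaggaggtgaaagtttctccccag
Zic4: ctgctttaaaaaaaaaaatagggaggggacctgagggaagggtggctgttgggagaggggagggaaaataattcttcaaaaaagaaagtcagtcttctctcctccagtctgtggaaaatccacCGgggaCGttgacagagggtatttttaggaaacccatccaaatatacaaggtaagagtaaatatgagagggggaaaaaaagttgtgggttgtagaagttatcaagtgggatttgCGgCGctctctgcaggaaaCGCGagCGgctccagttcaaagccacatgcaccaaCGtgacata
Zic5: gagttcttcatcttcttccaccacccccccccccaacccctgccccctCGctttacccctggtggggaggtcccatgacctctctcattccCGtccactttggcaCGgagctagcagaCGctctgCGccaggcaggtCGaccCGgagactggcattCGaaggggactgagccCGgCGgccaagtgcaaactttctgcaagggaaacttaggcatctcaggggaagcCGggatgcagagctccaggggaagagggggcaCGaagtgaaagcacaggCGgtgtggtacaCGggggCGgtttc
The Zic1 window, at chr9:91365719-91366018 of that build, held 31 CpG dinucleotides, more than 89.4% of the 32851 windows in the RefSeq table. The Zic4 window, at chr9:91368722-91369021, held 8, close to the median window with 7, and the Zic5 window, at chr14:122465609-122465908, held 15. None of these 3 windows contained the Gli-binding box TGGGTGGTC on either strand, a match found in 0.253% of windows, or the shorter CCTGCTG, found in 10.5%.

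A barcode counted as a cell with at least 500 UMIs and 500 genes, which kept 5693 and 3045 cells in the LSD1 KO libraries and 4393 and 6828 in the WT libraries, with library totals between 72285943 and 75406512 UMIs. Median UMIs per cell were 11402 and 20304 in LSD1 KO against 11698 and 9211 in WT. Kdm1a tags stood at 1.16 and 0.841 CPM (UMIs of the gene scaled to a library total of 1000000) in LSD1 KO and at 217 and 229 CPM in WT, although they lie outside the deleted part. Libraries shared between 3 and 15 cell barcodes per pair.

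All 4 Zic genes were higher in LSD1 KO than in WT EBs, and the 2 pairs differed in how far apart the genotypes stood. Zic1 and Zic4 were nearly undetected in WT, whereas Zic2 and Zic5 were present in both genotypes. Zic1 gave 221 and 187 UMIs in the LSD1 KO libraries (3.30 and 2.97 CPM), against 3 and 2 UMIs in the WT libraries (0.0473 and 0.0292 CPM). The ratio of the summed levels was 82.8, with a counting interval from 35.2 to 256 at 95%, which covers counting error only. Zic4 gave 58 and 71 UMIs in LSD1 KO (0.866 and 1.13 CPM) and 2 and 2 UMIs in WT (0.0316 and 0.0292 CPM), a ratio of 32.7 (12.5 to 122). No LSD1 KO library overlapped a WT library for either gene, and in WT both rested on a handful of molecules.

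Zic2 was by far the most counted member. It gave 4766 and 5308 UMIs in LSD1 KO (71.1 and 84.2 CPM), against 1047 and 1969 UMIs in WT (16.5 and 28.7 CPM), a ratio of 3.39 (3.25 to 3.53). The replicates of each genotype lay a similar number of CPM apart (SD 9.26 in LSD1 KO and 8.62 in WT), and the genotypes did not overlap. Zic5 gave 142 and 194 UMIs in LSD1 KO (2.12 and 3.08 CPM) and 26 and 38 UMIs in WT (0.410 and 0.554 CPM), a ratio of 5.33 (4.07 to 7.07). Levels of different genes are not compared further here, since counts of 3′ tags depend on each gene's 3′ end.

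**Figure D1:**
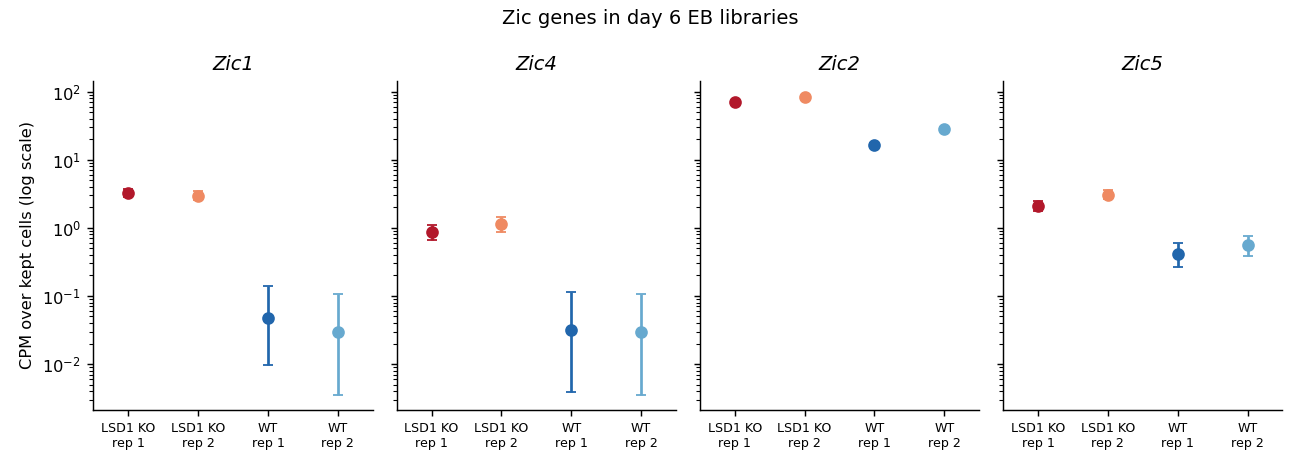
CPM of each Zic gene in the 2 LSD1 KO and the 2 WT libraries on a log scale. Points are libraries and bars are exact 95% Poisson intervals of the UMI count. For Zic1 both LSD1 KO libraries sit near 3 CPM and both WT libraries below 0.05 CPM, while for Zic2 the lowest LSD1 KO library, at 71.1 CPM, sits above the highest WT library, at 28.7 CPM.

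In edgeR's quasi-likelihood test of the library sums (n = 2 libraries per genotype), all 4 members passed an adjusted p of 0.05. All 4 also passed the filter on low counts, Zic1 and Zic4 only through LSD1 KO, so that their calls add little to the counts above. The log2 fold change, LSD1 KO over WT, was 6.17 for Zic1 (SE 0.36, edgeR adjusted p = 5.70e-04) and 4.82 for Zic4 (SE 0.45, edgeR adjusted p = 0.00141). For Zic5 it was 2.29 (SE 0.34, edgeR adjusted p = 0.00485) and for Zic2 1.64 (SE 0.29, edgeR adjusted p = 0.00822). Change was wide in these libraries: 22.6% of the 16955 genes tested rose in LSD1 KO by the same rule and 21.6% fell, and in 39.1% both LSD1 KO libraries lay above both WT libraries. All 4 members were still called without any 1 library and in every other alternative run for whole EBs, with a highest adjusted p of 0.0248 (Zic5 without WT replicate 1). In sums over a whole EB, a change in the share of a cell type and a change in RNA per cell cannot be told apart, so the genes were next read within cells grouped by markers.

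More cells carried a Zic tag as well. With each cell thinned to 1000 UMIs, Zic2 was seen in 6.51% and 6.88% of LSD1 KO cells and in 1.43% and 2.77% of WT cells. Zic1 was seen in 0.429% and 0.318% of LSD1 KO cells, against 0% and 0.0149% of WT cells, where 0 of 4194 cells allows a share of up to 0.0715%, taken as 3 cells of the total; such a limit holds for cells with a UMI at this depth, not for cells that express the gene. Zic5 was seen in 0.243% and 0.353% of LSD1 KO cells and in 0.0477% and 0.0149% of WT cells. Zic4 was seen in 6 and 2 LSD1 KO cells (0.112% and 0.0706%) and in 0 of 4194 and 0 of 6708 WT cells, which allows shares of up to 0.0715% and 0.0447%. For each member both LSD1 KO shares were above both WT shares. By level, both LSD1 KO libraries lay above both WT libraries in 39.1% of the genes tested, and for shares of cells this figure was not computed. For Zic4 the lower LSD1 KO share, 0.0706%, was under the WT limit of 0.0715%, so it was not separated from WT. An exact permutation test of 2 against 2 libraries cannot give a p below 0.33. Thinning left out 334 and 212 cells of the LSD1 KO libraries and 199 and 120 of the WT libraries. Without thinning, Zic2 was seen in 43.8% and 57.4% of LSD1 KO cells and in 14.1% and 19.7% of WT cells, and Zic1 in 3.28% and 4.17% of LSD1 KO cells and in 0.0455% and 0.0293% of WT cells.

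Free RNA was read from barcodes with fewer than 100 UMIs. There Zic2 stood at 45.8 and 49.6 CPM in LSD1 KO and at 12.0 and 18.7 CPM in WT, below its level in the cells of the same library each time. For Zic1 these barcodes held 7 and 6 UMIs in LSD1 KO (3.41 and 1.84 CPM), close to its level in cells, and 0 and 0 in WT. Zic5 stood at 4.39 and 2.14 CPM there in LSD1 KO and at 2.07 and 0.246 CPM in WT, above its level in cells in replicate 1 of each genotype and below it in replicate 2, on 9 and 7 UMIs in LSD1 KO and 5 and 1 in WT. Zic4 stood at 0 and 1.84 CPM in LSD1 KO (0 and 6 UMIs) and at 0.413 and 0 CPM in WT (1 and 0 UMIs). Cells with at least 5000 UMIs were thinned to that number, which left out 1330 and 869 LSD1 KO cells and 1326 and 1161 WT cells. Among the cells kept, Zic2 had a UMI in 28.5% and 31.9% in LSD1 KO, against 6.65% and 12.4% in WT. WT cells gated as cardiac and lateral mesoderm showed it in 1.32% and 4.25% at that depth (median depth before thinning 13505 and 9120 UMIs). Those gated as endoderm showed it in 3.44% and 8.09%. In the keratin gate of LSD1 KO, Zic2 was seen in 2 of 24 and 1 of 13 cells. Whether any of these cells lack Zic2 was not tested, so the shares do not measure free RNA alone. At the same depth Zic1 was seen in 1.70% and 1.47% of the LSD1 KO cells kept, and in 3 of 912 and 0 of 100 of those gated as primitive streak. The smaller keratin gate of LSD1 KO showed it in 0 of 24 and 0 of 13 cells.

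Cells were assigned to 10 gates by 104 marker genes, none of them a Zic gene. A marker counted as raised in a cell at 2 times its mean level over the 4 libraries or more, and a cell entered the gate with the most raised markers if it had at least 3. Of 19959 cells, 11574 entered a gate. The genotypes held different cells: the pluripotent gate (Pou5f1, Nanog, Dppa5a and others) took 854 and 831 cells in LSD1 KO and 32 and 225 in WT, and the neuron gate (Tubb3, Nefm, Stmn3 and others) took 1712 and 747 cells in LSD1 KO and 36 and 89 in WT. The primitive streak and nascent mesoderm gate (T, Mixl1, Eomes and others) took 967 and 105 cells in LSD1 KO and 62 and 173 in WT. Only these 3 gates held 30 cells or more in every library. Cardiac mesoderm, endoderm and keratin epithelium gates held 3, 1 and 44 LSD1 KO cells in all, against 1975, 859 and 1631 WT cells. Over a whole gate, a marker counted as raised at 2 times its level in the other cells of the same genotype, with a constant added to both. Leading genes were ranked by the same ratio. These other cells differ between the genotypes, so the counts do not measure whether the gated cells were alike. In the neuron gate of LSD1 KO 5 of 11 markers were raised, and Tagln, Acta2 and Actc1, genes of contractile cells, led it. In WT 10 of 11 were raised. In the pluripotent gate 7 of 12 markers were raised in LSD1 KO, and in WT all 12 with 4 markers of other gates. The primitive streak gate had 9 of 11 raised in both, with 4 markers of other gates in LSD1 KO and 2 in WT. The part of these differences in the Zic values within a gate was not tested.

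Among LSD1 KO cells, Zic1 and Zic4 had their highest values in the neural progenitor gate (Sox1, Pax6, Six6 and others), with counting intervals that overlapped those of a small paraxial gate. In LSD1 KO replicate 2 this gate gave 28 Zic1 UMIs in 60 cells, or 14.9 CPM with a counting interval from 9.90 to 21.5. In replicate 1 it gave 8 UMIs, or 33.2 CPM, in 18 cells, fewer than the 30 asked for. Summed over both LSD1 KO libraries the gate held 8.82% of all Zic1 UMIs and 12.4% of all Zic4 UMIs but 1.63% of all UMIs. Its Zic1 level was 7.47 times that of the pluripotent gate (counting interval 4.88 to 11.2). In WT, 209 cells of the neural progenitor gate gave 0 UMIs of Zic1 and 0 of Zic4. A floor of 3 UMIs summed over the WT gate was used in place of 0. The LSD1 KO level of Zic1, 17.0 CPM (counting interval 11.9 to 23.5), was 19.1 times that floor. For Zic4 the level of 7.55 CPM (4.31 to 12.3) was 8.47 times it. Such folds leave out the counting error of the LSD1 KO level, so they are not lower limits. The Zic1 UMIs of the gate came from 4 and 15 LSD1 KO cells. Its Zic4 UMIs came from 5 and 4 cells, and the 4 cells of replicate 2 held 11 of them. The counting intervals treat UMIs as independent and do not cover spread between cells. Against the other cells of the same genotype, 8 of the gate's 11 markers were raised in LSD1 KO and 10 of 11 in WT. Ptn, Six6, Crabp1 and Gbx2 were among the leading genes in LSD1 KO, and Sox1, Ptn and Six3 in WT. The cells compared against differ between the genotypes, so this did not measure whether the gated cells were alike. The part of these marker differences in the Zic1 and Zic4 values was not tested.

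The rest of the Zic1 transcripts in LSD1 KO were spread thinly. The neuron gate stood at 2.95 and 3.12 CPM, the pluripotent gate at 3.37 and 1.73 CPM and the primitive streak gate at 1.08 and 0.348 CPM. Cells that entered no gate stood at 5.29 and 3.11 CPM. The order neuron above primitive streak held in each LSD1 KO library beyond counting error, while neuron and pluripotent changed places between them. A small paraxial mesoderm and mesenchyme gate (Foxc1, Prrx1, Alx1 and others) of 52 LSD1 KO cells held 15 Zic1 UMIs, or 13.4 CPM (7.47 to 22.0), and 3 Zic4 UMIs, or 2.67 CPM (0.551 to 7.81). Its 515 WT cells held 0, and the LSD1 KO level of Zic1 was 30.3 times the floor of that gate. Across all WT gates Zic1 was found as 1 UMI in endothelium, 1 in keratin epithelium and 3 in cells of no gate. Zic4 in LSD1 KO stood at 0.843 and 0.992 CPM in the neuron gate, 1.33 and 0.796 CPM in the pluripotent gate and 0.434 and 1.39 CPM in the primitive streak gate, values whose intervals overlapped.

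Zic2 followed another order. Among LSD1 KO gates of 30 cells or more, its highest value was in the primitive streak gate, at 113 and 109 CPM. The small paraxial gate, at 108 and 87.5 CPM, and neural progenitor gate, at 87.3 and 90.5 CPM, had intervals that overlapped it. The neuron gate stood at 53.7 and 85.8 CPM and the pluripotent gate at 72.8 and 80.2 CPM, an order that differed between the 2 libraries, both below the primitive streak gate beyond counting error. In WT the primitive streak gate, at 68.0 and 76.6 CPM, and the neuron gate, at 74.2 and 64.9 CPM, were highest with overlapping intervals. The WT neural progenitor gate at 40.6 and 52.3 CPM, the paraxial gate at 50.2 and 50.8 CPM and the pluripotent gate at 48.8 and 42.7 CPM followed, with intervals that overlapped each other and in part those of the neuron gate. The types that made up most of the gated WT cells were low: cardiac and lateral mesoderm stood at 3.20 and 12.5 CPM, keratin epithelium at 8.58 and 11.9 CPM, endothelium at 8.96 and 11.4 CPM and endoderm at 9.89 and 15.7 CPM. The 44 LSD1 KO cells of the keratin gate were low too, at 12.2 CPM (4.92 to 25.2).

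**Figure D2:**
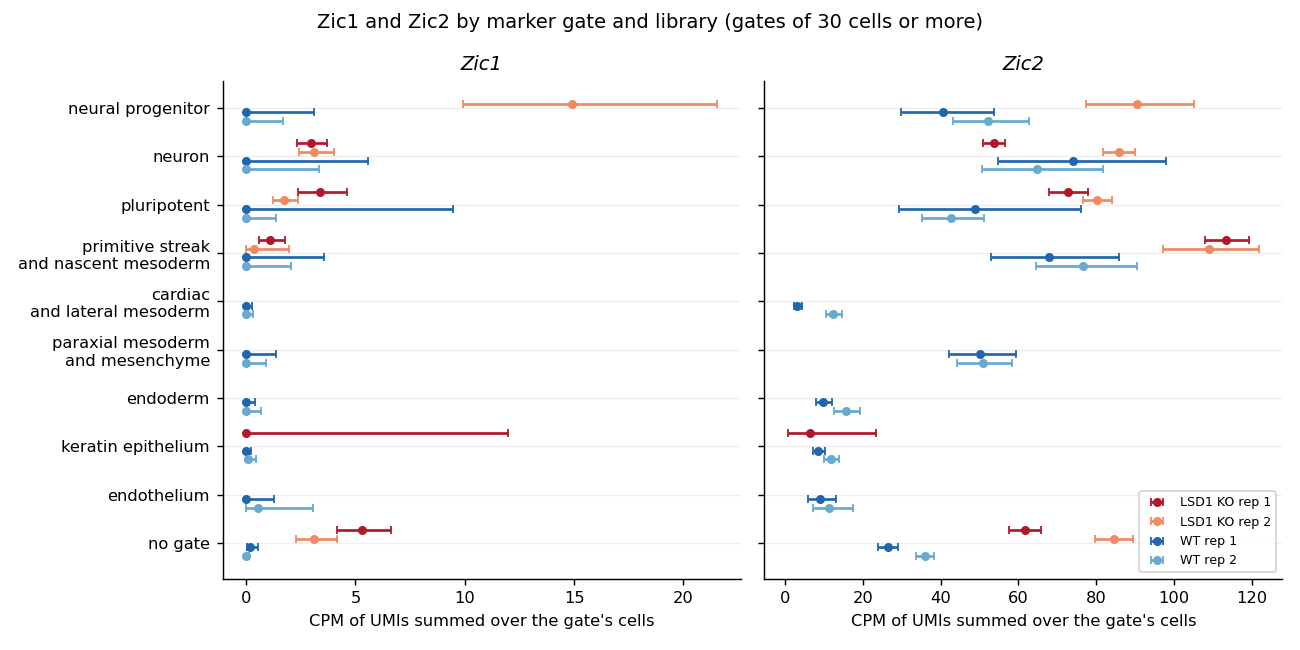
Level of Zic1 (left) and Zic2 (right) in each marker gate, in CPM of the UMIs summed over the gate's cells, for gates of 30 cells or more in that library. Points are libraries and bars exact 95% Poisson intervals; Zic1 peaks at 14.9 CPM in the neural progenitor gate of LSD1 KO replicate 2 and is at 0 in that gate in WT, while Zic2 in WT ranges from 3.20 CPM in cardiac mesoderm to 76.6 CPM in the primitive streak gate.

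Within a gate the fitted Zic2 difference lay nearer 0 than the 1.64 of whole EBs, a contrast that was not itself tested. In the pluripotent gate, Zic2 had a log2 fold change of 0.81 (SE 0.16, edgeR adjusted p = 0.00136), where 14.7% of 13279 genes rose. Without LSD1 KO replicate 2 this call was lost (log2 fold change 0.72, edgeR adjusted p = 0.108). In the primitive streak gate it was 0.47 (SE 0.14, edgeR adjusted p = 0.0259), where 14.2% of 11162 genes rose. That call was lost without LSD1 KO replicate 1 (edgeR adjusted p = 0.151), LSD1 KO replicate 2 (0.102) or WT replicate 1 (0.111), and when 4 markers were asked for (0.279). In the neuron gate Zic2 did not pass the test, with a log2 fold change of −0.023 (SE 0.25, edgeR adjusted p = 0.972), where 4.17% of 13802 genes rose.

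Whether the Zic2 difference itself varied between gates was tested in edgeR with a gate by genotype term and a library block, a fit not planned beforehand and run once the gate results were known. The log2 fold change was 0.85 larger in the pluripotent than in the neuron gate (SE 0.28, edgeR adjusted p = 0.0729), which did not pass, while 8.94% of 12574 genes did. The primitive streak gate differed from the neuron gate by 0.55 (edgeR adjusted p = 0.311) and from the pluripotent gate by −0.31 (edgeR adjusted p = 0.499). Without LSD1 KO replicate 2 the first of these was 1.11 and passed (edgeR adjusted p = 0.0224).

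For Zic1 the WT cells of the 3 gates gave 0 UMIs each, so the LSD1 KO level was set against the floor of 3 UMIs over each WT gate. In the pluripotent gate the level, 2.27 CPM (counting interval 1.79 to 2.84), was 2.37 times the floor. In the neuron gate the level, 3.03 CPM (2.55 to 3.57), was 1.79 times it. In the primitive streak gate the LSD1 KO level, 0.958 CPM, was under the WT floor of 1.06 CPM, so no fold is given. Zic1 passed the filter on low counts in the other gates through LSD1 KO alone, so its tests there lend no support: the edgeR adjusted p was 0.0248 in the pluripotent gate, where leaving out WT replicate 2 raised it to 0.403, and 0.0856 in the neuron gate. Without either LSD1 KO library Zic1 did not pass the filter on low counts in the pluripotent gate and was not tested. The LSD1 KO library that remained held 39 or 38 Zic1 UMIs there, and the cutoff of this filter depends on library size. Zic5 did not pass in either gate in which it was tested. It stood at 2.84 and 3.32 CPM in LSD1 KO cells of the pluripotent gate against 5.14 and 2.56 CPM in WT cells, which rest on 2 and 7 UMIs (log2 fold change 0.09, SE 0.54, edgeR adjusted p = 0.925). In the neuron gate it stood at 1.61 and 3.37 CPM in LSD1 KO and at 0 and 0.901 CPM in WT (log2 fold change 2.06, SE 1.32, edgeR adjusted p = 0.370). Zic4 passed the filter on low counts in none of the 3 gates.

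Because the genotypes differ in which gates are filled, each WT library's gate levels, the level of cells in no gate included, were weighted by the share of UMIs each gate held in each LSD1 KO library, giving 4 combinations. For Zic2 this gave 49.9 to 57.4 CPM. These values lie between the LSD1 KO libraries, at 71.1 and 84.2 CPM, and the WT libraries, at 16.5 and 28.7 CPM. For Zic5 the weighted values were 0.980 to 2.20 CPM; the highest of them passed the lower LSD1 KO library, at 2.12 CPM, and all 4 lay above the WT libraries, at 0.410 and 0.554 CPM. For Zic1 they were 0.00278 to 0.0416 CPM and for Zic4 0.00843 to 0.0139 CPM, none above the higher WT library (0.0473 CPM for Zic1 and 0.0316 CPM for Zic4). The reverse weighting, of LSD1 KO gate levels by WT gate shares, gave 37.2 to 54.4 CPM for Zic2, 0.953 to 2.27 CPM for Zic5, 2.77 to 4.50 CPM for Zic1 and 0.594 to 1.68 CPM for Zic4; it covered as little as 84.8% of the WT UMIs and rests in part on LSD1 KO gates of a few cells. The gates are coarse, and this weighting, chosen after the data had been seen, carries no test.

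**Figure D3:**
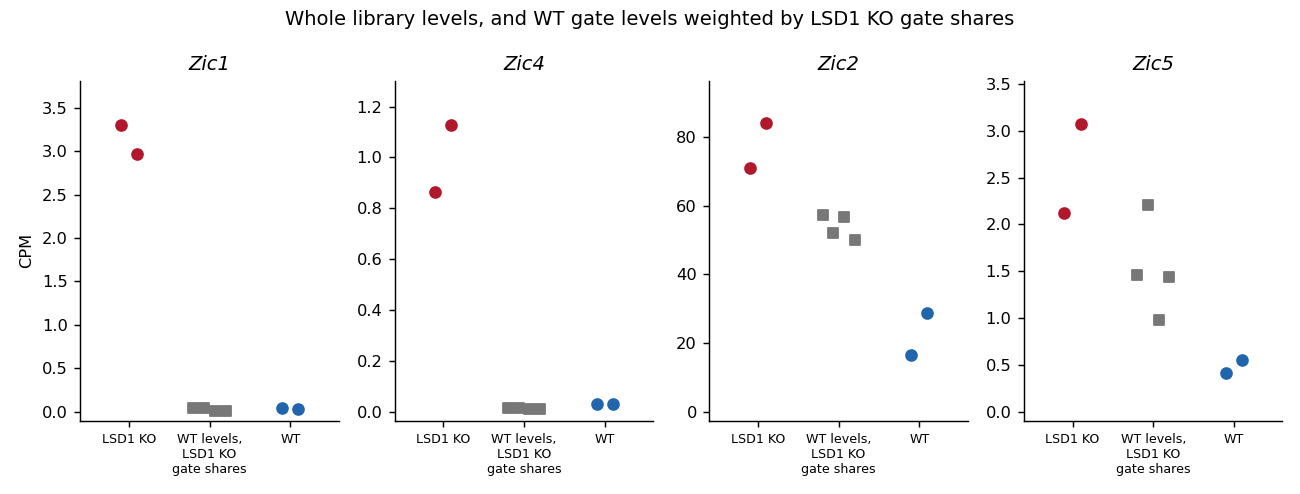
Level of each Zic gene, in CPM, in the 2 LSD1 KO libraries (red), in the 4 combinations of WT gate levels with LSD1 KO gate shares (grey squares) and in the 2 WT libraries (blue). For Zic2 the grey values, 49.9 to 57.4 CPM, lie between the genotypes. For Zic1 they stay at or below 0.0416 CPM, beside the WT libraries, with WT gates of 0 UMIs taken as a level of 0 and their counting error not drawn.

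The members of a pair were also compared cell by cell, in cells thinned to 5000 UMIs. In LSD1 KO, Zic1 and Zic4 were seen together in 2 and 2 cells, where 0.288 and 0.221 would be expected if the genes were spread independently within a library. Pooled over both libraries the ratio of seen to expected was 7.86, with a counting interval from 2.14 to 20.1, and 5.10 when the expectation was taken within each gate. Without thinning, 9 and 20 cells held both against 1.77 and 2.25 expected, ratios of 5.07 and 8.88. Of the LSD1 KO cells with a Zic4 UMI, 16.7% and 37.0% also had a Zic1 UMI in these unthinned counts. In WT no thinned cell held both, with 2 and 1 cells for each gene.

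Zic2 and Zic5 were set against each other in the same way. In thinned LSD1 KO cells 29 and 8 held both, against 17.4 and 12.5 expected, so that the ratio was 1.67 (1.12 to 2.40) in replicate 1 and 0.642 (0.277 to 1.27) in replicate 2, with intervals that overlapped. Without thinning the ratios were 1.60 (1.30 to 1.95) and 1.497 (1.27 to 1.75). Zic1 and Zic2, of different pairs, were seen together in 20 and 11 cells against 21.1 and 10.2 expected, ratios of 0.949 and 1.08. The counting intervals of these ratios ran from 0.579 to 1.47 and from 0.537 to 1.93. Unthinned, the ratios were 1.19 (0.961 to 1.45) and 1.41 (1.15 to 1.71). Zic4 and Zic2, also of different pairs, gave 1.40 (0.961 to 1.96) and 1.52 (1.11 to 2.02) unthinned. All of these intervals overlapped those of Zic2 and Zic5 unthinned. Zic1 and Zic5 gave 0.870 and 1.17 unthinned, and Zic4 and Zic5 1.51 and 0.919. Without thinning, 31 and 30 LSD1 KO cells held 2 Zic1 UMIs or more, of 187 and 127 cells with any. No expected number was computed for this, and the cells differ in depth. The most in a cell was 3 UMIs in replicate 1 and 8 UMIs in replicate 2.

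**Figure D4:**
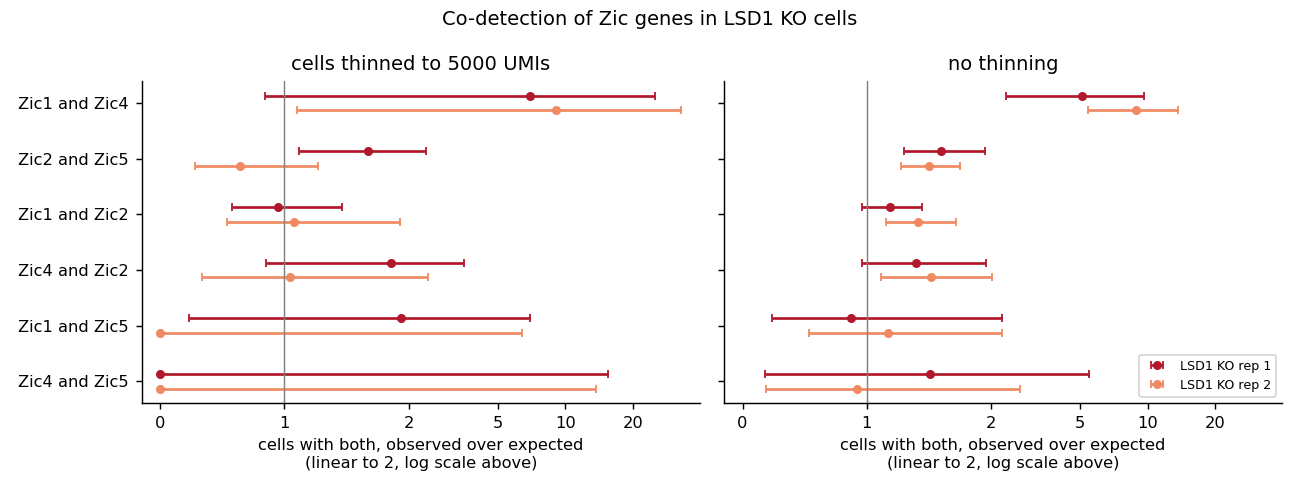
Number of LSD1 KO cells with a UMI of both genes over the number expected from the separate shares in the library, for the 6 pairs of members, with cells thinned to 5000 UMIs (left) and unthinned (right). Bars are exact 95% Poisson intervals of the observed number and the grey line marks a ratio of 1; the Zic1 and Zic4 pair lies at 6.94 and 9.07 in thinned cells, and the Zic1 and Zic2 pair at 0.949 and 1.08.

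The genes around the 2 loci were read in the same fit. Between Zic5 and Zic2 lies a long noncoding RNA gene, 2610035F20Rik (chr14:122869506-122872801, mm9, minus strand). It gave 150 and 151 UMIs in LSD1 KO (2.24 and 2.40 CPM) and 30 and 50 UMIs in WT (0.473 and 0.729 CPM), with a log2 fold change of 1.80 (SE 0.31, edgeR adjusted p = 0.00775). Gm5089, 5.68 kb beyond the 3′ end of Zic5, rose by 0.84 on the log2 scale (SE 0.24, edgeR adjusted p = 0.0359). Farther out, Clybl, which encodes a mitochondrial citramalyl-CoA lyase, and Tm9sf2 had log2 fold changes of 0.40 and −0.20 and did not pass (edgeR adjusted p = 0.0705 and 0.148). On the Zic2 side, 54.5 kb away, Pcca, a propionyl-CoA carboxylase subunit, fell by 0.48 on the log2 scale (edgeR adjusted p = 0.0122). Beyond it Tmtc4 fell by 1.09 (edgeR adjusted p = 0.00290), and 4930594M22Rik, at 0.31, did not pass (edgeR adjusted p = 0.323).

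The Zic1 and Zic4 pair stands alone in its stretch of chromosome 9, with the nearest annotated gene in the data lying 860.7 kb away. That gene, Plscr1, a phospholipid scramblase, gave 29.3 and 27.4 CPM in LSD1 KO and 19.7 and 17.1 CPM in WT (log2 fold change 0.49, SE 0.10, edgeR adjusted p = 0.0148). Plscr2, Tbc1d2b, Adamts7 and Morf4l1 did not pass, with log2 fold changes from −1.15 to 0.63 (lowest edgeR adjusted p = 0.0548). A sixth neighbour, 1700057G04Rik, had too few counts to be tested, with 8 and 10 UMIs in LSD1 KO and 1 and 2 in WT.

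**Figure D5:**
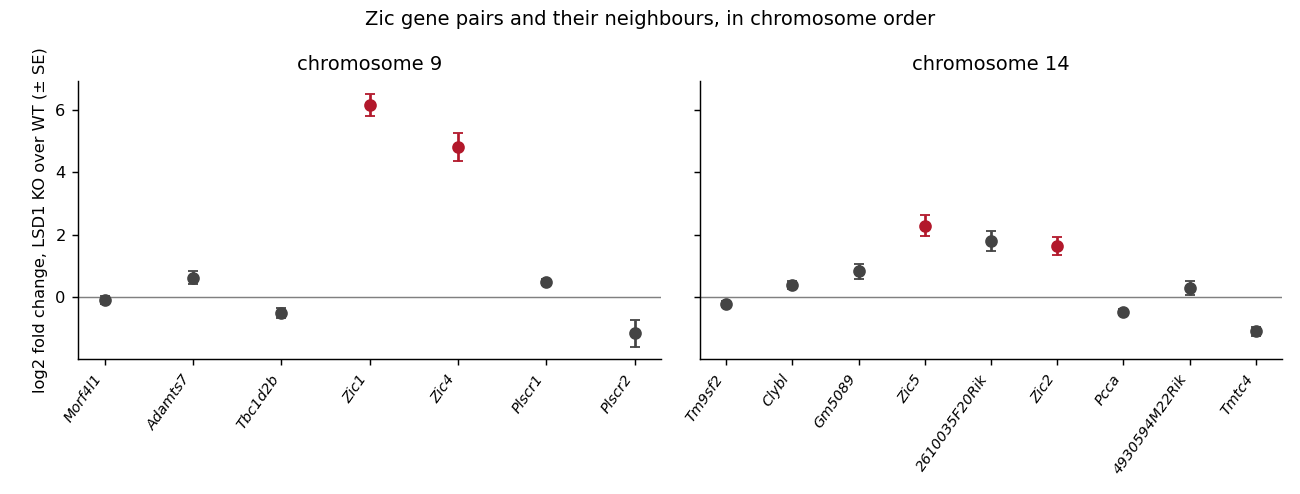
Log2 fold change, LSD1 KO over WT, with its standard error from edgeR, for the Zic genes (red) and the nearest annotated genes that could be tested (grey), in chromosome order and not to scale. On chromosome 9 Zic1 and Zic4 stand at 6.17 and 4.82 while their 5 neighbours lie between −1.15 and 0.63; on chromosome 14 the genes from Zic5 to Zic2 lie between 1.64 and 2.29.

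Genes of the tissues in which Zic genes act did not move one way. In the lists that follow, levels are TMM-scaled CPM and the median log2 fold change over all 16955 genes was −0.000595; scaling by library totals alone would raise that median to 0.13. Of 21 dorsal neural tube and neural plate border genes, 15 were tested, 5 rose and 4 fell (median log2 fold change 0.015), beside 22.6% rising and 21.6% falling among all genes. Msx3, expressed in the dorsal neural tube, gave 17 and 33 UMIs in LSD1 KO and 1 and 3 in WT, and Gbx2, a homeobox gene of the midbrain and hindbrain boundary, stood at 4.21 and 9.19 CPM in LSD1 KO against 0.257 and 0.942 CPM in WT (log2 fold change 3.47, edgeR adjusted p = 0.0103). In the other direction, Lmx1a, a roof plate regulator, stood at 0.311 and 0.245 CPM in LSD1 KO against 6.25 and 8.77 CPM in WT (log2 fold change −4.74, edgeR adjusted p = 6.17e-04), and Msx2, a BMP target, at 7.23 and 2.92 CPM against 51.4 and 30.7 CPM in WT (log2 fold change −3.01).

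Ventral genes were mostly lower. Of 13 ventral neural tube and floor plate genes 12 were tested, 8 fell and 1, Olig2, rose (median log2 fold change −2.82). Shh, the secreted signal of the notochord and floor plate, gave 2 and 1 UMIs in LSD1 KO and 813 and 1513 UMIs in WT (edgeR adjusted p = 5.70e-04). Foxa2, a floor plate and endoderm factor, stood at 3.75 and 1.96 CPM in LSD1 KO and at 42.2 and 52.0 CPM in WT (log2 fold change −4.04). Several genes of this list also act in endoderm, and the endoderm gate held 1 LSD1 KO cell and 859 WT cells; its part in these values was not tested. Nkx2-1 and Dbx1 also fell, with 1 and 0 and with 1 and 3 UMIs in LSD1 KO. Of the 6 Gli and Glis genes, whose zinc fingers are the nearest kin of those of Zic proteins, Gli1 fell (log2 fold change −2.91, edgeR adjusted p = 0.00154), Glis2 and Glis3 rose (0.74 and 0.70), and Gli2, Gli3 and Glis1 did not pass. Gli1, a direct target of hedgehog signalling, belongs to both of these lists.

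Of 12 neural crest genes 5 rose and 5 fell (median 0.54), and without WT replicate 1 the number past the threshold was 6 in place of 10. Foxd3, a crest and epiblast factor, stood at 7.95 and 18.7 CPM in LSD1 KO and at 0.225 and 1.13 CPM in WT (log2 fold change 4.29, edgeR adjusted p = 0.00811), Ngfr, a neurotrophin receptor, had a log2 fold change of 4.41, and Tfap2b gave 38 and 47 UMIs in LSD1 KO against 1 and 1 in WT. Snai2, a regulator of cell delamination, fell by 2.24 on the log2 scale. The formative and primed epiblast list, which shares Foxd3, was the one that moved most in the direction of the Zic genes: 10 of 13 rose, 0 fell and 3 did not pass (median 1.39). Sox3, a neural and epiblast SoxB1 gene, stood at 20.3 and 28.4 CPM in LSD1 KO and at 2.36 and 3.70 CPM in WT (log2 fold change 3.003, edgeR adjusted p = 0.00137). Pou3f1 stood at 77.2 and 118 CPM in LSD1 KO and at 15.2 and 19.1 CPM in WT (log2 fold change 2.51, edgeR adjusted p = 0.00143), and Fgf8, also a marker of the primitive streak gate, rose by 1.67. Of 13 anterior neural plate genes 2 rose and 5 fell (median −0.88): Hesx1, Six3 and Rax, genes of forebrain and eye, fell by 5.01, 4.07 and 2.64 on the log2 scale, while Pax6 rose by 2.29 (edgeR adjusted p = 0.00795). The last 3 are markers of the neural progenitor gate.

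The genes whose level ran most like that of each member were sought over 26 sums of a gate in a library, on the log2(CPM + 1) scale. These points share libraries and cells of the same EBs, so the correlations are descriptions. Most of the 26 sums are of WT gates, where Zic1 and Zic4 gave 0 or 1 UMI each. For both genes r therefore mixes the genotypes with the gates, and the part of each was not tested. Among 11634 genes, Zic1 ran closest to Ndnf, which encodes a secreted neurotrophic factor (Pearson r = 0.95), followed by Cntnap5a, Xlr5a, Gfra1, a GDNF receptor, and Mat2a. Zic4 ran closest to Gabra4, a GABA receptor subunit (r = 0.88), then Uba1y, Usp39 and Ralyl. Zic2 ran closest to Kcnj3, a potassium channel subunit (r = 0.89), then Supt16, Dnph1, Atp5e and Coprs. Zic5 ran closest to Serpini1, which encodes neuroserpin (r = 0.89), then Pnpt1, Trim13, Orc1 and Ei24. By rank correlation 1, 0, 2 and 4 of the 5 genes nearest by Pearson correlation stayed among the nearest 5 for Zic1, Zic4, Zic2 and Zic5. Among the members themselves Zic1 and Zic4 ran most alike (r = 0.77), while Zic2 and Zic5 had r = 0.54 and the pairs across loci 0.23 to 0.51. By Spearman correlation Zic1 and Zic4 were again highest (0.69), but Zic2 and Zic5 (0.43) fell below Zic1 and Zic2 (0.55) and Zic4 and Zic5 (0.50).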

How the data were processed

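EBs were dissociated and captured in droplets (10x 3′ v3.1 chemistry). The files hold UMI counts as deposited, for every gene in every barcode; the authors made them with Cell Ranger 7.1.0, and mm9 is the build in the submitters' processing notes. Counts were not normalized and the tables hold 0 mitochondrial genes. No doublets were removed. The remaining Zic family gene was not analysed here.

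UMIs were summed over kept cells of each library, or of each gate with at least 30 cells in every library, and tested with edgeR 4.0.16 (TMM, filterByExpr, quasi-likelihood) in R 4.3.3, with Benjamini-Hochberg adjustment over all genes tested. Member and gate levels are CPM of plain UMI totals, with exact 95% Poisson or binomial intervals for counting error only; Python 3.11.15 was used. The edgeR step was tested on simulated sums of whole EBs in which every gene had the same dispersion. It called 7 of 16755 unchanged genes, 75 of 106 changed by 2 times and 91 of 94 changed by 4 times. The simulation does not cover the spread of these libraries or the fits within gates. The replicates are called biological. The p-values set the genotype difference against the spread between these samples, estimated with information from all genes. Since the number of KO clones is not given, spread between clones may not be covered. The members, lists and markers were chosen with earlier results of these data known, and the gate rule was set after gate sizes were seen, without reading Zic levels. Cells tied between gates (1199) or with too few raised markers (7186) entered none.

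Genes named are the members, the 5 most correlated genes per member (gate markers and Zic genes left out, at least 10 CPM in a sum), the 3 nearest annotated genes on each side of each pair, up to 4 genes of each list with the largest change past the threshold, and gate markers; 1 gene that this rule picks is not reported here. 2610035F20Rik, Olig2, Gli2, Gli3 and Glis1, and genes that led a gate, are named beside these after their values were seen. Alternatives changed the scaling, test (DESeq2 1.42.0), gene filter, cell filter, thinning and marker minimum, left out each library or added a replicate block.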

Additional observations from a re-analysis of the deposited data

How the results depend on the processing

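Each member kept its direction and its call in whole EBs under all 10 alternatives, with log2 fold changes from 5.90 to 6.50 for Zic1, 4.61 to 5.01 for Zic4, 1.27 to 2.14 for Zic2 and 1.98 to 2.57 for Zic5. Zic1 and Zic4 held 2 or 3 UMIs in each WT library and passed the filter on low counts only through LSD1 KO. Their kept calls therefore add little to those counts. Within gates, the number of calls (3, among them Zic1 with WT at 0) ranged from 0 to 2 with 1 library left out. With a library left out, the log2 fold change of Zic2 ranged from 0.72 to 0.89 in the pluripotent, 0.35 to 0.63 in the primitive streak and −0.38 to 0.27 in the neuron gate, and that of Zic5 from −0.54 to 0.25 in the pluripotent and 1.35 to 8.27 in the neuron gate. Fitted values of Zic1, with WT at 0, depend on the prior count: 7.78 to 7.88 in the pluripotent and 8.57 to 8.58 in the neuron gate. Asking for 4 markers lost the Zic2 call in the primitive streak gate (log2 fold change 0.26); the other gates then held too few cells. Asking for 2, an alternative chosen after seeing the data, gave a Zic1 call in the neuron gate (8.31, edgeR adjusted p = 0.0190) and turned the uncalled Zic2 value there to 0.10, as did scaling by totals to 0.019. The cause was not tested. By Spearman correlation 7 of the 20 nearest genes were shared. Genes past the threshold over all lists numbered 38 to 43 with a library left out. The co-detection ratio of Zic1 and Zic4 was 6.94 to 9.07 and the Zic1 ratio of the neural progenitor to the pluripotent gate 8.64 to 9.86 with 1 LSD1 KO library left out. Scaling by totals called 4841 genes higher and 2583 lower over whole EBs, against 3840 and 3660. Replicate numbers did not pair the samples by the labels (r = 0.157 over genes between the replicate differences of the genotypes); a replicate block changed no call of a member, with log2 fold changes of 6.17, 4.82, 1.69 and 2.29 for Zic1, Zic4, Zic2 and Zic5 in whole EBs.

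With 2 libraries per genotype, the spread is poorly known. Zic1, Zic4 and Zic5 have few UMIs, so their absence from a cell or a small WT gate was not detectable at this depth.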
